A study of Mus musculus with 24 samples.

Results

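The change over time in the effect of whole-body Jnk1 loss on the ligated liver was examined in 12 of the 24 arrays of the series, 3 for each of 4 groups chosen by genotype, operation and time. The groups were JNK1-/- livers 28 d after bile duct ligation (BDL), control livers 28 d after BDL, JNK1-/- livers 48 h after BDL and control livers 48 h after BDL. The interaction was the JNK1-/- minus control difference at 28 d minus the same difference at 48 h. A positive value therefore means that the difference was higher at 28 d, and a negative value that it was lower. All mice were male, labelled C57/BL6, and aged 12 weeks at the 28 d point and 8 weeks at the 48 h point. Control mice were JNK1f/f, carrying Jnk1 alleles flanked by recombination sites, and came as a gift of the line, whereas the JNK1-/- mice were bought from a supplier, so genotype and source of the mice cannot be told apart. No sham-operated JNK1-/- liver was among the 24 arrays, and time after surgery cannot be told apart from age. The other arrays held JNK1Δhepa livers, in which an albumin-promoter Cre deletes Jnk1 in hepatocytes, after BDL for 28 d and 48 h, and sham-operated control livers of both times.

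Jnk1 (gene symbol Mapk8) encodes JNK1, a kinase of the stress response whose best known substrate is Jun, a subunit of the AP-1 transcription factor. It is switched on by bile acids, cytokines and lipid overload, and it acts in hepatocytes as well as in stellate cells, macrophages and endothelium. Ligation of the common bile duct retains bile in the liver. The first days bring necrosis of hepatocytes, inflammation, reduced feeding and a stress hormone response, and weeks of cholestasis bring growth of bile ducts and scarring.

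Each array gave a log2 intensity for 18820 genes, and the median standard error (SE) of an interaction was 0.183, against 0.129 for a difference between groups. Mapk8 itself read 6.11, 5.18 and 5.61 in the JNK1-/- livers at 28 d, against 7.67, 7.41 and 7.44 in controls. At 48 h it read 5.33, 6.17 and 6.09 in the JNK1-/- livers, against 7.47, 7.49 and 7.37 in controls. Every JNK1-/- array lay below every control array of its time. The difference was -1.87 at 28 d (adjusted p = 1.02e-04) and -1.58 at 48 h (adjusted p = 5.70e-04), with an interaction of -0.29 (SE 0.31, adjusted p = 0.707). Whether the Mapk8 probes lie inside the deleted exons is not stated in the sources used here. The interaction of Mapk9, which encodes JNK2, was 0.24 (adjusted p = 0.327), and that of Mapk10, which encodes the largely neuronal JNK3, was -0.07 (adjusted p = 0.836). Nnt, the mitochondrial transhydrogenase that some C57BL/6 substrains lack, lay at 9.45 to 10.39 on all 12 arrays, with an interaction of 0.64 (adjusted p = 0.263).

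Some arrays stood apart from their group. JNK1-/- 48 h replicate 1 had the lowest mean level of 17 cholesterol synthesis genes (8.95, against 10.90 and 10.59 in the other JNK1-/- livers at 48 h) and the highest of 14 neutrophil genes (6.32, against 5.67 and 5.42). Control 28 d replicate 1 was low in cholesterol synthesis genes (9.19, against 10.58 and 10.19 in the other control livers at 28 d) and in 26 interferon response genes (6.01, against 6.93 and 6.96). Control 28 d replicate 3 was high in 17 bile duct markers (8.49, against 6.50 and 6.91) and in 27 collagen and matrix genes (8.38, against 7.15 and 7.46). Control liver at 28 d was the most variable group, with a median SD over genes of 0.187, against 0.115 to 0.139 in the other 7 groups. In bulk liver, fewer cells of a type and less RNA per cell cannot be told apart, which bears on every marker of a cell type below. Control 28 d replicate 1 and JNK1-/- 48 h replicate 1 were also left out together, and values without them, called values without the pair below, follow each gene whose call this ended. Control 28 d replicate 3, which stood apart as well, was left out only singly.

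Calls below mean an adjusted p under 0.05 in the fit over all genes. The interaction was called for 140 genes, 0.744% of those tested, of which 78 (0.414%) were higher and 62 (0.329%) lower at 28 d. With each array centred on its median the count was 259, of which 202 were higher and 57 lower. In the uncentred fit 9002 of the 18820 genes had an interaction above 0 and 9818 below. Counts of list members below, called or by sign, are to be read against the shares of that fit. At an unadjusted p under 0.05 there were 2798 genes, 14.9% of all (8.53% higher and 6.33% lower), the share against which the counts of list members at that threshold below are to be read. The JNK1-/- minus control difference alone was called for 433 genes at 48 h (2.3% of genes), 225 of them higher (1.2%) and 208 lower (1.11%). At 28 d it was called for 118 (81 higher, 37 lower; 0.627%), or for 154 higher and 33 lower after median centring. The fit pooled the variance over all 8 groups. With only the 12 arrays of the comparison in the fit no gene was called for the interaction by limma (lowest adjusted p 0.0858, and 1980 genes at an unadjusted p under 0.05), and with intensity-dependent robust variances on those 12 arrays none was either (lowest adjusted p 0.0648, 1930 genes unadjusted).

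The count was 69 without the 3 arrays labelled control sham 48 h in the fit, and it also moved with single arrays of the comparison. It was 32, 109 and 73 without JNK1-/- 28 d replicates 1, 2 and 3, and 52, 442 and 574 without control 28 d replicates 1, 2 and 3. It was 48, 81 and 197 without JNK1-/- 48 h replicates 1, 2 and 3, and 16, 25 and 176 without control 48 h replicates 1, 2 and 3. All 140 genes kept their sign in each of these 12 fits, which their choice from the same arrays favours. Of them, 15 kept their call in all 12. These 15, singled out after their values were seen, were Mmd2, P2ry4, Cd209f, Ddc, Pygl, Dhrs11, Denn2b and Dynll2, higher at 28 d, and Obp2a, Slc8a1, Angptl4, Fmo2, Ms4a8a, Rasgef1b and Nceh1, lower at 28 d. Of these, Ddc, Obp2a, Angptl4, Fmo2 and Ms4a8a lost their call without the pair. Of the 54 called genes named in the text, the call was lost for 39 without control 48 h replicate 1, 33 without control 48 h replicate 2, 34, 9 and 22 without JNK1-/- 28 d replicates 1, 2 and 3, 30 and 15 without JNK1-/- 48 h replicates 1 and 2, and 25 without control 28 d replicate 1. Without control 28 d replicate 1 and JNK1-/- 48 h replicate 1 together, 23 genes were called, 18 of them among the 140, and 41 of the 54 named genes lost their call. By average level over the 24 arrays, 45 of the 54 lay in the brighter 50% of genes. The others, in the dimmer 50%, were Rnf186, Obp2a, Slc10a6, Slc8a1, Chil3, Fcamr, Cd209f, Cfap20dc and Itga2b. Brackets after a number of fits below give the range of the value over the 12 fits without 1 array.

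The called genes were sorted by the shape of the change. In 44 the difference reversed, meaning that it had opposite signs at the 2 times and was at least 0.5 at both. In 66 it faded, being larger at 48 h without such a reversal, and in 30 it emerged, being larger at 28 d. The signs at 28 d and 48 h were opposite in 134 of the 140, 75 of the 78 genes higher at 28 d and 59 of the 62 lower ones, which the choice of genes by the gap between the times favours, against 52.7% of all genes. The difference itself was called at 48 h in 92 of the 140, at 28 d in 17, at both times in 2 of these and at neither in 33. The 3 JNK1-/- and 3 control arrays did not overlap at 28 d in 79 of the 140 and at 48 h in 122, which the choice of the genes favours, and over all genes in 12.7% at 28 d and 21.3% at 48 h. In 78 of the 140 the control livers differed more between 28 d and 48 h than the JNK1-/- livers did, and in 62 the JNK1-/- livers differed more.

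**Figure D1:**
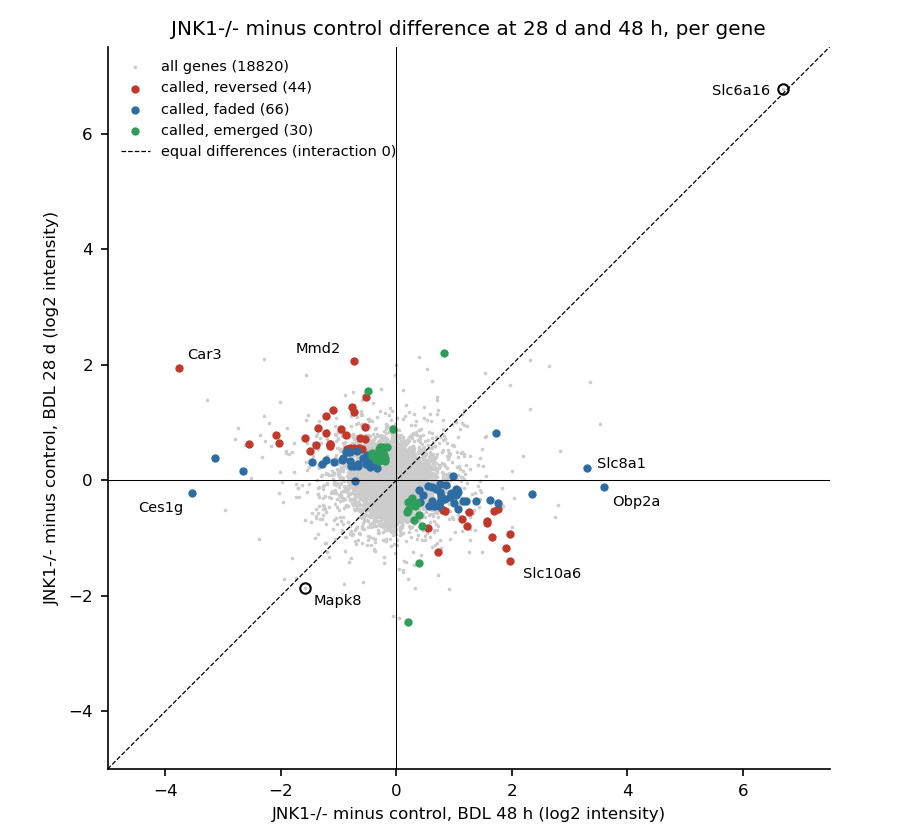
The JNK1-/- minus control difference of each of 18820 genes at 28 d (y axis, log2 intensity) against that at 48 h (x axis, log2 intensity), with the 140 genes called for the interaction coloured by shape and a dashed line where both differences are equal. Called genes lie mostly at the upper left and lower right, while Mapk8 and Slc6a16 lie near the line.

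Other genes were called at both times. Of the genes called at 48 h and of those called at 28 d, 41 were shared, 9.47% of the first list and 34.7% of the second, and all 41 had the same direction at both times. Slc6a16, an amino acid transporter family member, was 6.78 higher at 28 d and 6.70 at 48 h on the log2 scale, an interaction of 0.08 (adjusted p = 0.925). Tead2, a partner of the YAP coactivator, was higher by 2.08 at 28 d and 2.32 at 48 h, and Prelid2 by 1.98 and 2.64. Gas2 was lower, at -1.72 at 28 d and -1.94 at 48 h. These 4 were picked after their values were seen as examples of the 41. For all of the 41, genotype and source of the mice cannot be told apart.

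Of the 41, the interaction was called for Cfap20dc and Slc39a2 alone, and both kept 1 direction while the size changed. Both genes lie on chromosome 14, and for them too genotype and source of the mice cannot be told apart. Cfap20dc read 7.08, 7.18 and 6.81 in JNK1-/- livers at 28 d, against 4.49, 4.70 and 5.26 in controls, and 5.56, 5.78 and 5.85 in JNK1-/- livers at 48 h, against 5.17, 4.88 and 4.66 in controls. Every JNK1-/- array was above every control array at both times, by 2.20 at 28 d and 0.83 at 48 h (interaction 1.37, SE 0.26, adjusted p = 0.0207). Slc39a2, a zinc transporter, read 6.79, 6.45 and 6.74 in JNK1-/- livers at 28 d, against 5.76, 5.85 and 5.92 in controls, and 7.53, 7.39 and 7.26 in JNK1-/- livers at 48 h, against 5.68, 5.87 and 5.48 in controls. Again no array overlapped, and the difference was 0.82 at 28 d and 1.72 at 48 h (interaction -0.90, SE 0.19, adjusted p = 0.0332). Without 1 array at a time, the call was lost for Cfap20dc in 5 fits (1.21 to 1.59, largest adjusted p 0.0728 without control 48 h replicate 1) and Slc39a2 in 9 fits (-0.99 to -0.80, largest adjusted p 0.0869 without control 48 h replicate 1). Leaving out the pair ended the calls, with 1.12 for Cfap20dc (adjusted p = 0.104) and -0.87 for Slc39a2 (adjusted p = 0.107).

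Among genes whose difference was higher at 28 d, the 12 largest values included Car3, Inmt, Ces1g, Nudt7 and Cyp4f14, which encode enzymes of hepatocyte metabolism, and Slc22a7, a transporter. Car3, carbonic anhydrase 3, an abundant enzyme of male mouse liver, read 10.60, 8.42 and 10.05 in JNK1-/- livers at 28 d, against 6.17, 8.00 and 9.06 in controls. At 48 h it read 7.07, 7.46 and 9.08 in JNK1-/- livers, against 12.29, 10.81 and 11.81 in controls, while the 6 sham-operated control livers lay between 12.85 and 13.08. JNK1-/- livers at 48 h were all below the controls, with a difference of -3.76 (adjusted p = 0.00598), and at 28 d the groups overlapped with a difference of 1.95 (adjusted p = 0.237). The interaction was 5.71 (SE 0.98, adjusted p = 0.0126). The call of Car3 was lost without control 48 h replicate 1 (5.39, adjusted p = 0.0528). The call did not hold without the pair, at 4.53 for Car3 (adjusted p = 0.0586). Control livers were -3.89 on the log2 scale at 28 d relative to 48 h, and JNK1-/- livers 1.82.

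Ces1g, a carboxylesterase of hepatocytes that hydrolyses lipid esters, showed the fading form. It read 11.82, 11.11 and 10.72 in JNK1-/- livers at 28 d, against 11.29, 11.68 and 11.37 in controls, and 6.20, 8.72 and 8.85 in JNK1-/- livers at 48 h, against 11.42, 11.55 and 11.43 in controls. Only the JNK1-/- livers at 48 h were low, and the control arrays of both times lay within 11.29 to 11.68. The difference was -0.23 at 28 d (adjusted p = 0.888) and -3.54 at 48 h (adjusted p = 1.59e-04), an interaction of 3.31 (SE 0.61, adjusted p = 0.02). JNK1-/- 48 h replicate 1 was the lowest array, and without the pair the interaction was 2.37 (adjusted p = 0.00704). The call of Ces1g was lost without JNK1-/- 28 d replicate 1 (3.01, adjusted p = 0.0577), control 48 h replicate 1 (3.33, adjusted p = 0.0528) and control 48 h replicate 2 (3.27, adjusted p = 0.0521).

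Inmt, an amine methyltransferase, had the same form, with a difference of 0.38 at 28 d and -3.14 at 48 h and an interaction of 3.52 (SE 0.68, adjusted p = 0.0217). The call of Inmt was lost without control 28 d replicate 1 (3.04, adjusted p = 0.0519), JNK1-/- 28 d replicate 1 (3.04, adjusted p = 0.0582), control 48 h replicate 1 (3.38, adjusted p = 0.0728) and JNK1-/- 48 h replicate 1 (3.23, adjusted p = 0.0558). Clec2h, a C-type lectin family member, was 0.63 at 28 d and -2.55 at 48 h, with an interaction of 3.18 (adjusted p = 0.0226). The call of Clec2h was lost without JNK1-/- 28 d replicate 1 (3.02, adjusted p = 0.0634), control 48 h replicate 1 (2.80, adjusted p = 0.0805), control 48 h replicate 2 (3.20, adjusted p = 0.053) and JNK1-/- 48 h replicate 1 (2.93, adjusted p = 0.0592). Sytl5, a Rab27-binding protein of vesicle traffic, had an interaction of 2.86 (adjusted p = 0.0226), and its difference was 0.78 at 28 d and -2.08 at 48 h. The call of Sytl5 was lost without JNK1-/- 28 d replicate 1 (2.83, adjusted p = 0.0577), JNK1-/- 28 d replicate 3 (2.77, adjusted p = 0.0501), control 48 h replicate 1 (2.93, adjusted p = 0.062), control 48 h replicate 2 (2.59, adjusted p = 0.067) and JNK1-/- 48 h replicate 1 (2.58, adjusted p = 0.0592). With the pair left out none was called, at 2.75 for Inmt (adjusted p = 0.107), 3.03 for Clec2h (adjusted p = 0.0881) and 2.07 for Sytl5 (adjusted p = 0.0889). In these 3 genes every JNK1-/- array at 48 h lay below every control array of that time.

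Mmd2, a membrane protein of the progestin and adipoQ receptor family, differed more at 28 d. It read 7.62, 7.16 and 7.32 in JNK1-/- livers at 28 d, against 5.34, 5.65 and 4.91 in controls, and 6.42, 5.53 and 5.76 in JNK1-/- livers at 48 h, against 6.78, 6.84 and 6.27 in controls. At 28 d the arrays did not overlap and the difference was 2.06 (adjusted p = 0.00152), while at 48 h they overlapped at -0.73 (adjusted p = 0.245). The interaction was 2.79 (SE 0.43, adjusted p = 0.00785) and lay between 2.60 and 3.05 when single arrays were left out. P2ry4, a receptor for extracellular UTP, had the same shape, with a difference of 1.26 at 28 d (adjusted p = 0.0145) and -0.76 at 48 h (adjusted p = 0.108), an interaction of 2.02 (adjusted p = 0.0123).

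The remaining named genes higher at 28 d were Fam47e (interaction 2.68), Slc22a7, the organic anion transporter OAT2 (2.32), Tlcd2 (2.32), Nudt7, a peroxisomal coenzyme A diphosphatase (2.31), Cyp4f14, an omega-hydroxylase of the cytochrome P450 4 family (2.26), and Rnf186, a ubiquitin ligase (2.04). In each of them the difference was negative at 48 h (-2.03 to -1.10) and positive at 28 d (0.65 to 1.22). The call of Fam47e was lost without control 48 h replicate 1 (2.37, adjusted p = 0.0528). Among fits that left out 1 of 12 arrays, the call was lost for Slc22a7 in 6 fits (1.93 to 2.61, largest adjusted p 0.092 without control 48 h replicate 1), Tlcd2 in 6 fits (1.88 to 2.54, largest adjusted p 0.119 without control 48 h replicate 1), Nudt7 in 8 fits (1.86 to 2.72, largest adjusted p 0.112 without control 48 h replicate 1), Cyp4f14 in 6 fits (1.84 to 2.65, largest adjusted p 0.0861 without control 48 h replicate 1) and Rnf186 in 8 fits (1.68 to 2.29, largest adjusted p 0.11 without JNK1-/- 28 d replicate 1). Without the pair Fam47e kept its call, at 2.38 (adjusted p = 0.0281). The others were not called, at 1.73 for Slc22a7 (adjusted p = 0.13), 1.5 for Tlcd2 (adjusted p = 0.131), 1.62 for Nudt7 (adjusted p = 0.158), 1.71 for Cyp4f14 (adjusted p = 0.0964) and 1.33 for Rnf186 (adjusted p = 0.161).

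Pygl, liver glycogen phosphorylase, which releases glucose from glycogen, read 10.47, 10.25 and 10.57 in JNK1-/- livers at 28 d, against 9.61, 10.09 and 10.12 in controls. At 48 h it read 9.43, 9.41 and 9.41 in JNK1-/- livers, against 10.47, 10.21 and 9.95 in controls. JNK1-/- arrays lay above all controls at 28 d and below all controls at 48 h, and the interaction was 1.29 (SE 0.20, adjusted p = 0.00785). Ddc, the decarboxylase that makes dopamine and serotonin, turned round in the same way, with 9.36, 9.30 and 9.41 in JNK1-/- livers at 28 d, against 8.32, 8.93 and 8.48 in controls, and 8.24, 8.41 and 8.45 in JNK1-/- livers at 48 h, against 9.47, 9.31 and 8.92 in controls. Its interaction was 1.65 (SE 0.27, adjusted p = 0.0122). The call was lost without the pair, at 1.46 for Ddc (adjusted p = 0.0553).

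Cd209f, a C-type lectin of the DC-SIGN family, read 3.88, 3.94 and 4.41 in JNK1-/- livers at 28 d, against 3.49, 3.67 and 4.11 in controls, and 3.98, 3.87 and 4.30 in JNK1-/- livers at 48 h, against 5.28, 5.63 and 5.63 in controls. The 3 control livers at 48 h alone stood above the others, and the interaction was 1.79 (SE 0.27, adjusted p = 0.00785). All of these readings were dim, below the array medians of the groups compared (5.75 to 6.08). The interaction was 1.21 for Dhrs11, a short-chain dehydrogenase, 1.13 for Denn2b, an exchange factor for Rab proteins, and 0.96 for Dynll2, a dynein light chain. For these 3 the arrays of the genotypes did not overlap at either time, with JNK1-/- livers above controls at 28 d and below them at 48 h.

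Among genes whose difference was lower at 28 d, Obp2a, a lipocalin of the odorant-binding family, had the largest value. It read 4.28, 4.92 and 5.26 in JNK1-/- livers at 28 d, against 4.95, 5.71 and 4.15 in controls, and 9.04, 8.69 and 7.55 in JNK1-/- livers at 48 h, against 5.18, 4.21 and 5.13 in controls. The JNK1-/- livers at 48 h stood above every other array of the comparison, by 3.59 over controls (adjusted p = 1.77e-04), and at 28 d the difference was -0.12 (adjusted p = 0.95). The interaction was -3.70 (SE 0.63, adjusted p = 0.0126). Leaving out the pair ended the call, with -3.39 for Obp2a (adjusted p = 0.0575).  Slc8a1, the sodium-calcium exchanger NCX1, had the same shape, with 4.43, 5.73 and 5.03 in JNK1-/- livers at 28 d, against 4.71, 4.81 and 5.0 in controls, and 7.07, 7.44 and 7.43 in JNK1-/- livers at 48 h, against 4.20, 3.63 and 4.22 in controls (interaction -3.08, SE 0.43, adjusted p = 0.00772). The 3 arrays labelled control sham 48 h read 6.05, 7.24 and 5.89, and those labelled control sham 28 d read 4.03, 4.81 and 4.28. The control sham 48 h arrays, whose Mapk8 also read below the other controls (6.67 to 6.93), enter the fit only through the pooled variance.

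Slc10a6, a transporter of sulphated steroids, reversed. It read 5.27, 5.67 and 5.66 in JNK1-/- livers at 28 d, against 8.04, 6.76 and 6.00 in controls, and 7.33, 6.33 and 6.33 in JNK1-/- livers at 48 h, against 4.24, 4.53 and 5.31 in controls. No array overlapped at either time, JNK1-/- livers being below controls at 28 d and above them at 48 h. The interaction was -3.37 (SE 0.64, adjusted p = 0.0207), and it was -2.48 (adjusted p = 0.0881) without the pair. The call of Slc10a6 was lost without JNK1-/- 28 d replicate 1 (-3.23, adjusted p = 0.0577), control 48 h replicate 1 (-3.14, adjusted p = 0.0728), control 48 h replicate 2 (-3.29, adjusted p = 0.053) and JNK1-/- 48 h replicate 1 (-3.03, adjusted p = 0.0531).

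Angptl4, a secreted inhibitor of lipoprotein lipase that fasting and glucocorticoids induce, reversed as well. It read 8.17, 8.87 and 9.16 in JNK1-/- livers at 28 d, against 10.41, 9.55 and 9.20 in controls, and 10.02, 9.65 and 9.87 in JNK1-/- livers at 48 h, against 7.94, 7.80 and 8.84 in controls. The JNK1-/- livers were the lower group at 28 d (-0.98, adjusted p = 0.173) and the higher at 48 h (1.65, adjusted p = 0.00623). Its interaction of -2.64 (SE 0.43, adjusted p = 0.0122) was called in all 12 fits without a single array, though not without the pair. Fmo2, a flavin monooxygenase, was -0.23 at 28 d and 2.35 at 48 h (adjusted p = 2.89e-04), with an interaction of -2.58 (adjusted p = 0.0122). The calls did not hold without the pair, at -2.21 for Angptl4 (adjusted p = 0.0504) and -2.13 for Fmo2 (adjusted p = 0.058).

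Fkbp5, a cochaperone of the glucocorticoid receptor and one of its classical targets, read 8.77, 9.11 and 8.79 in JNK1-/- livers at 28 d, against 9.88, 9.46 and 8.84 in controls. At 48 h it read 10.41, 9.86 and 9.64 in JNK1-/- livers, against 7.88, 8.25 and 8.53 in controls. The 3 JNK1-/- livers exceeded all controls at 48 h, the groups overlapped at 28 d, and the interaction was -2.25 (SE 0.46, adjusted p = 0.0262). Per1, a clock repressor that glucocorticoids also induce, had an interaction of -2.22 (SE 0.49, adjusted p = 0.0404), with -0.53 at 28 d and 1.70 at 48 h. When single arrays were left out in 12 fits, calls were lost for Fkbp5 in 6 fits (-2.53 to -2.01, largest adjusted p 0.0931 without control 48 h replicate 1) and Per1 in 7 fits (-2.56 to -1.82, largest adjusted p 0.125 without control 48 h replicate 1). With the pair left out none was called, at -1.79 for Fkbp5 (adjusted p = 0.14) and -1.75 for Per1 (adjusted p = 0.157).

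Of the other named genes lower at 28 d, Nrg4, a growth factor of the EGF family, had an interaction of -2.91, Gpcpd1, which cleaves glycerophosphocholine, -2.32, Fcamr, a receptor for IgA and IgM, -2.29, and Fbxo31, an F-box protein, -2.15. Each was higher in every JNK1-/- array than in every control array at 48 h, by 1.57 to 1.97. Leaving out 1 array at a time, in 12 fits, ended the call of Nrg4 in 6 fits (-3.38 to -2.55, largest adjusted p 0.112 without control 48 h replicate 1), Gpcpd1 in 6 fits (-2.74 to -1.88, largest adjusted p 0.0886 without control 48 h replicate 2), Fcamr in 4 fits (-2.65 to -1.92, largest adjusted p 0.0577 without JNK1-/- 28 d replicate 1) and Fbxo31 in 8 fits (-2.50 to -1.68, largest adjusted p 0.137 without control 48 h replicate 1). Without the pair none was called, at -2.95 for Nrg4 (adjusted p = 0.0881), -1.71 for Gpcpd1 (adjusted p = 0.13), -1.65 for Fcamr (adjusted p = 0.0881) and -1.38 for Fbxo31 (adjusted p = 0.183). Ms4a8a, a tetraspanning membrane protein, Rasgef1b, an exchange factor for small GTPases, and Nceh1, a neutral cholesterol ester hydrolase, had interactions of -2.0, -1.57 and -1.09 that were called in all 12 such fits. The call was lost without the pair, at -1.94 for Ms4a8a (adjusted p = 0.0504).

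**Figure D2:**
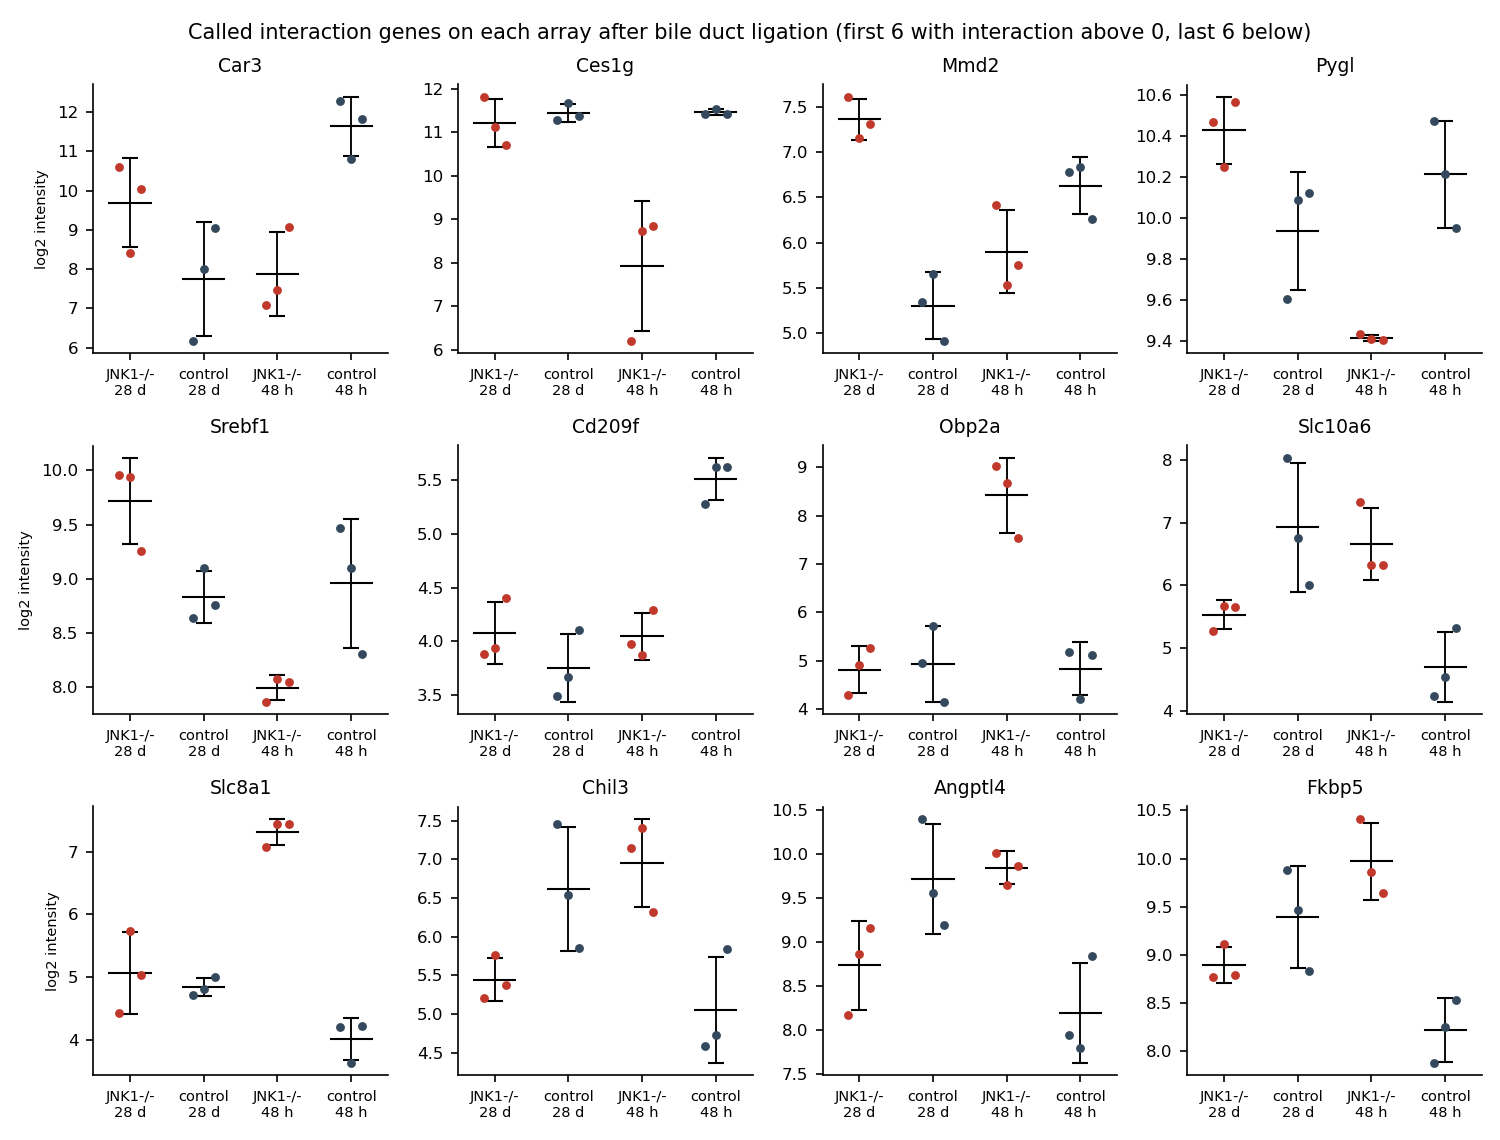
Log2 intensity (y axis) of 12 called interaction genes on each array of JNK1-/- and control livers after BDL for 28 d and 48 h, with the mean and SD of 3 arrays. In the first 6 panels the JNK1-/- livers lie lower relative to controls at 48 h than at 28 d, and in the last 6 they lie higher.

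Chil3, a chitinase-like protein of alternatively activated macrophages and of neutrophils, read 5.21, 5.76 and 5.38 in JNK1-/- livers at 28 d, against 7.46, 6.54 and 5.86 in controls, and 7.14, 7.41 and 6.31 in JNK1-/- livers at 48 h, against 4.59, 4.74 and 5.84 in controls. The JNK1-/- arrays lay below all controls at 28 d and above all controls at 48 h, with an interaction of -3.07 (SE 0.53, adjusted p = 0.0126). The call of Chil3 was lost without control 48 h replicate 1 (-2.84, adjusted p = 0.0528). Leaving out the pair ended the call, with -2.56 for Chil3 (adjusted p = 0.0575). Cd163, the haemoglobin scavenger receptor of Kupffer cells and other tissue macrophages, read 6.48, 6.48 and 6.15 in JNK1-/- livers at 28 d, against 8.39, 7.86 and 7.17 in controls, and 7.35, 7.22 and 7.35 in JNK1-/- livers at 48 h, against 6.69, 6.95 and 7.10 in controls. Its difference emerged at 28 d (-1.44, adjusted p = 0.0056), with an interaction of -1.83 (SE 0.34, adjusted p = 0.0207). The call of Cd163 was lost without control 48 h replicate 1 (-1.71, adjusted p = 0.0723) and control 48 h replicate 2 (-1.84, adjusted p = 0.0521). The call did not hold without the pair, at -1.51 for Cd163 (adjusted p = 0.0846).

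Cd163 was the 1 called member of 23 macrophage and Kupffer cell markers, whose median interaction was -0.27. That median was -0.16, -0.17 and -0.47 without JNK1-/- 28 d replicates 1, 2 and 3, -0.12 without control 28 d replicate 3 and -0.09 without JNK1-/- 48 h replicate 1. The mean level of that list was 8.13 to 8.64 in JNK1-/- livers at 28 d, against 8.30 to 8.75 in controls, and 8.09 to 8.39 in JNK1-/- livers at 48 h, against 8.20 to 8.27 in controls. All 14 neutrophil markers had an interaction below 0, with a median of -0.54, but none was called by limma and 5 had an unadjusted p under 0.05. Without control 48 h replicate 1 the median was -0.27, and over all fits without 1 array it lay between -0.79 and -0.27. Their mean level was 4.92 to 5.08 in JNK1-/- livers at 28 d, below the 5.18 to 5.64 of controls, while at 48 h it was 5.42 to 6.32 in JNK1-/- livers and 4.97 to 6.12 in controls. The 4 neutrophil markers with the smallest p were the surface antigen Cd177 (-0.59, adjusted p = 0.128), the calcium-binding S100a8 (-1.53), the resistin-like Retnlg (-1.37) and the collagenase Mmp8 (-1.30). The part of these cell types in the interaction of Chil3 was not tested. Of 9 blood cell genes 1 was called, Itga2b, an integrin subunit of platelets, with an interaction of -0.77 (SE 0.17, adjusted p = 0.0404). Without 1 array at a time, the call was lost for Itga2b in 7 fits (-0.89 to -0.65, largest adjusted p 0.127 without control 48 h replicate 1). With the pair left out it was not called, at -0.58 for Itga2b (adjusted p = 0.183).

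No gene of the collagen, stellate cell or matrix remodelling lists was called for the interaction. Among the collagens the median took the other sign, 0.05, when arrays were centred on their medians. None of 27 collagen and fibrillar matrix genes was called by limma, none had an unadjusted p under 0.05, and their median interaction was -0.02. The medians of the JNK1-/- minus control difference in this list were -0.25 at 28 d and -0.18 at 48 h. Of 23 stellate cell and myofibroblast markers none was called and 2 had an unadjusted p under 0.05, with a median interaction of -0.17, and of 19 matrix remodelling genes none was called, 4 had an unadjusted p under 0.05, and the median was -0.33. Control 28 d replicate 3, high in matrix genes, moved these values: without it the medians were 0.23 for collagens, 0.29 for stellate markers and 0.00 for matrix remodelling. Without the pair these medians were -0.23 for collagens, -0.35 for stellate markers and -0.42 for matrix remodelling. Leaving out each array in turn moved them between -0.26 and 0.23 for collagens, -0.54 (without control 28 d replicate 1) and 0.29 for stellate markers, and -0.67 (without JNK1-/- 28 d replicate 3) and 0.00 for matrix remodelling, so no direction is given for these lists.

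Ccn2, connective tissue growth factor, a target of TGF-beta and YAP in stellate cells and hepatocytes, was the 1 called gene of 16 in the TGF-beta list. It read 8.16, 8.94 and 8.76 in JNK1-/- livers at 28 d, against 9.11, 9.88 and 10.58 in controls, and 8.77, 8.04 and 7.45 in JNK1-/- livers at 48 h, against 7.02, 7.49 and 7.60 in controls. JNK1-/- livers were all below controls at 28 d (-1.24, adjusted p = 0.081), and the groups overlapped at 48 h (0.72, adjusted p = 0.27). The interaction was -1.96 (SE 0.44, adjusted p = 0.0447). Among fits that left out 1 of 12 arrays, the call was lost for Ccn2 in 6 fits (-2.33 to -1.60, largest adjusted p 0.132 without control 48 h replicate 1). Over the 16 genes the median interaction was -0.16, and it was -0.31 without the pair, -0.29 and 0.00 without control 28 d replicates 2 and 3 and -0.28 without JNK1-/- 28 d replicate 3.

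Genes of lipid synthesis mostly had an interaction above 0. SREBP1 (gene Srebf1) drives fatty acid synthesis in response to insulin, ChREBP (gene Mlxipl) in response to sugar, and SREBP2 drives cholesterol synthesis. Of 28 fatty acid and triglyceride synthesis genes 23 had an interaction above 0, with a median of 1.16 against -0.01 over all genes, and 3 were called, all higher (0.414% of all genes were called higher). At 48 h 6 of the 28 were called lower in JNK1-/- livers and 1 higher (1.11% and 1.2% of all genes), with a median difference of -0.57. At 28 d none was called and the median was 0.35.

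Srebf1 read 9.96, 9.94 and 9.26 in JNK1-/- livers at 28 d, against 8.64, 9.10 and 8.75 in controls, and 7.86, 8.08 and 8.04 in JNK1-/- livers at 48 h, against 9.47, 9.10 and 8.30 in controls. JNK1-/- livers were above all controls at 28 d and below all controls at 48 h, and the interaction was 1.85 (SE 0.34, adjusted p = 0.0189). The call of Srebf1 was lost without JNK1-/- 28 d replicate 1 (1.73, adjusted p = 0.0575), control 48 h replicate 1 (1.59, adjusted p = 0.0528) and control 48 h replicate 2 (1.78, adjusted p = 0.0521). Without the pair the value was no longer called, at 1.69 for Srebf1 (adjusted p = 0.0881). Mlxipl read 9.90, 9.71 and 9.74 in JNK1-/- livers at 28 d, against 9.46, 9.58 and 9.45 in controls, and 9.42, 9.26 and 9.72 in JNK1-/- livers at 48 h, against 10.14, 9.94 and 9.91 in controls, with the same absence of overlap and an interaction of 0.82 (SE 0.16, adjusted p = 0.0226). Gpam, which catalyses the first step of glycerolipid synthesis, had an interaction of 1.40 (SE 0.30, adjusted p = 0.0385), and Acacb, the acetyl-CoA carboxylase at the mitochondrial surface, 2.01 (SE 0.50, adjusted p = 0.0629). When single arrays were left out in 12 fits, calls were lost for Mlxipl in 6 fits (0.71 to 0.94, largest adjusted p 0.0827 without control 48 h replicate 1) and Gpam in 6 fits (1.24 to 1.60, largest adjusted p 0.114 without control 48 h replicate 1). The calls were lost without the pair, at 0.78 for Mlxipl (adjusted p = 0.0964) and 1.11 for Gpam (adjusted p = 0.173).

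The 6 genes lower at 48 h were Srebf1 (-0.96), Mlxipl (-0.53), Gpam (-0.86), Acacb (-1.45), the stearoyl-CoA desaturase Scd1 (-1.35) and malic enzyme Me1 (-1.11), and the 1 that was higher was Lpin1 (1.15), a phosphatidate phosphatase that fasting and glucocorticoids induce. Outside the list, and picked after their values were seen, Angptl8, an insulin-induced regulator of lipoprotein lipase, had an interaction of 2.0 (adjusted p = 0.0476), Mid1ip1, an activator of acetyl-CoA carboxylase, 1.77 (adjusted p = 0.0404), and Lpl, lipoprotein lipase, 1.57 (adjusted p = 0.0239). Leaving out 1 array at a time, in 12 fits, ended the call of Angptl8 in 8 fits (1.69 to 2.35, largest adjusted p 0.149 without control 48 h replicate 1), Mid1ip1 in 7 fits (1.48 to 2.01, largest adjusted p 0.126 without control 48 h replicate 1) and Lpl in 5 fits (1.41 to 1.80, largest adjusted p 0.0869 without control 48 h replicate 1). Leaving out the pair ended the calls, with 1.82 for Angptl8 (adjusted p = 0.18), 1.21 for Mid1ip1 (adjusted p = 0.18) and 1.29 for Lpl (adjusted p = 0.13).

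All 17 cholesterol synthesis genes had an interaction above 0, with a median of 1.24, and yet none was called by limma, while 10 had an unadjusted p under 0.05. The median difference was 0.61 at 28 d and -0.64 at 48 h. The members with the smallest p were Insig1, the sterol sensor that restrains SREBPs (1.40, adjusted p = 0.0789), Sc5d (1.39), Dhcr7 (1.62) and Fdps (1.24), 3 enzymes of the pathway. The mean level of the list was 10.75, 10.57 and 10.41 in JNK1-/- livers at 28 d, against 9.19, 10.58 and 10.19 in controls. At 48 h it was 8.95, 10.90 and 10.59 in JNK1-/- livers, against 10.77, 10.99 and 10.72 in controls. A single array set the mean apart in each of 2 groups, and the median interaction was 0.81 without control 28 d replicate 1, 0.69 without JNK1-/- 48 h replicate 1 and 0.17 without the pair. The median of the fatty acid and triglyceride list was 0.71 without the pair.

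Fatty acid oxidation was not of 1 direction. Of 21 genes of this list, Angptl4 and Cpt1a were called, both lower at 28 d, 10 had an interaction above 0, and the median was -0.08. Cpt1a, the enzyme that admits long-chain fatty acids to mitochondria, read 11.31, 11.15 and 11.18 in JNK1-/- livers at 28 d, against 11.91, 11.23 and 11.30 in controls, and 11.71, 11.75 and 11.76 in JNK1-/- livers at 48 h, against 11.06, 10.75 and 11.08 in controls. JNK1-/- livers were above all controls at 48 h, and the interaction was -1.04 (SE 0.20, adjusted p = 0.0226). The call of Cpt1a was lost without control 48 h replicate 1 (-1.09, adjusted p = 0.0528) and control 48 h replicate 2 (-0.94, adjusted p = 0.067). The call did not hold without the pair, at -0.85 for Cpt1a (adjusted p = 0.0568). Ppargc1a, a coactivator of oxidation and gluconeogenesis, had an interaction of -1.90 (adjusted p = 0.0666) and the peroxisomal thiolase Acaa1b of 2.79 (adjusted p = 0.072).

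**Figure D3:**
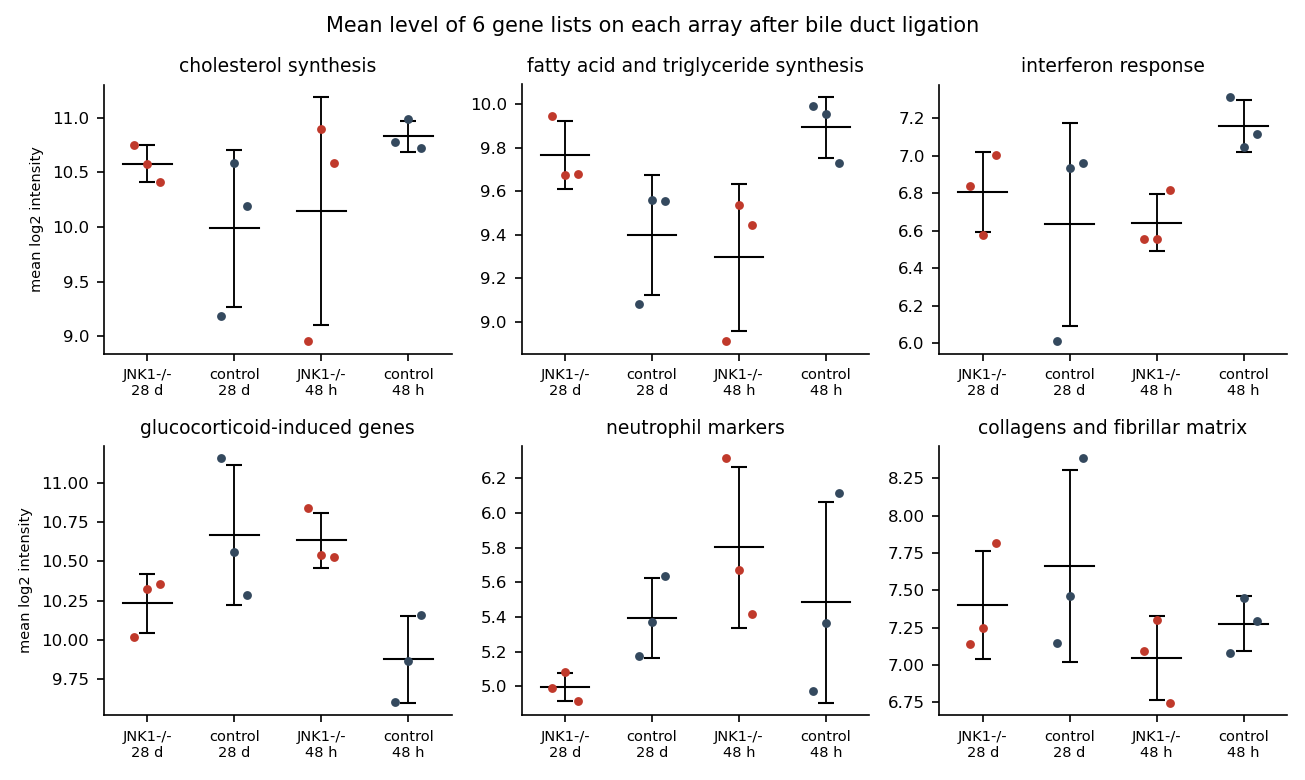
Mean log2 intensity (y axis) of 6 gene lists on each array, with the mean and SD of 3 arrays for JNK1-/- and control livers at 28 d and 48 h. The lowest cholesterol synthesis points are control 28 d replicate 1 (9.19) and JNK1-/- 48 h replicate 1 (8.95), and control 28 d replicate 3 holds the highest collagen level (8.38).

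A list of 14 glucocorticoid-induced genes was drawn up after values of the interaction were seen, so its direction is a description. All 14 lay below 0 (9818 of all 18820 genes did), with a median of -0.90, and 3 were called lower (0.329% of all genes), Angptl4, Fkbp5 and Per1. The mean level of the 14 was 10.02 to 10.35 in JNK1-/- livers at 28 d, against 10.29 to 11.15 in controls, and 10.52 to 10.84 in JNK1-/- livers at 48 h, against 9.61 to 10.16 in controls. The groups overlapped at 28 d and not at 48 h. Without the pair the median was -0.62. Of the members that were not called, Pck1, the gluconeogenic carboxykinase, had an interaction of -0.72 (adjusted p = 0.0525) and Zbtb16 of -1.78 (adjusted p = 0.0662). Of 17 circadian clock genes Per1 was called and the median was -0.54, or -0.29 without JNK1-/- 28 d replicate 3. Npas2 was at 2.41 (adjusted p = 0.136), Tef at -1.24 and Cry2 at -1.04. The hour at which each liver was taken is not given in the sources used here.

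Interferon response genes leaned the other way. Of 26 such genes 25 had an interaction above 0, with a median of 0.55, 1 was called and 10 had an unadjusted p under 0.05. Bst2, tetherin, which holds budding viruses at the cell surface, read 8.44, 8.40 and 8.77 in JNK1-/- livers at 28 d, against 7.57, 8.69 and 8.41 in controls, and 7.57, 7.71 and 8.12 in JNK1-/- livers at 48 h, against 9.07, 8.69 and 8.87 in controls. JNK1-/- livers were below all controls at 48 h (-1.08, adjusted p = 0.0147), and the interaction was 1.39 (SE 0.32, adjusted p = 0.046). Without 1 array at a time, the call was lost for Bst2 in 9 fits (1.06 to 1.62, largest adjusted p 0.137 without control 48 h replicate 1). With the pair left out it was not called, at 0.94 for Bst2 (adjusted p = 0.166). Oasl1 had an interaction of 2.28 (adjusted p = 0.0662), the RNA sensor Ifih1 of 1.15 (adjusted p = 0.078) and the antiviral enzyme Rsad2 of 1.19 (adjusted p = 0.125). Cmpk2, an interferon-induced nucleotide kinase outside the list and picked after its value was seen, had an interaction of 1.56 (adjusted p = 0.0226). Among fits that left out 1 of 12 arrays, the call was lost for Cmpk2 in 6 fits (1.36 to 1.71, largest adjusted p 0.0787 without control 48 h replicate 1). Without the pair the value was no longer called, at 1.25 for Cmpk2 (adjusted p = 0.112). The median of the list was 0.28 without control 28 d replicate 1 and 0.24 without the pair.

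Genes of mitochondrial translation, 98 by symbol, were gathered after the called genes had been seen. The interaction was above 0 in 84 of them (9002 of all 18820 genes), with a median of 0.27, and 5 were called higher (0.414% of all genes). These were the ribosomal protein Mrpl45 (0.72), the elongation factor Tsfm (0.70) and the aminoacyl-tRNA synthetases Sars2 (0.77), Yars2 (0.73) and Aars2 (0.57). Tsfm read 7.28, 7.26 and 7.28 in JNK1-/- livers at 28 d, against 6.86, 7.00 and 6.91 in controls, and 6.74, 7.16 and 7.16 in JNK1-/- livers at 48 h, against 7.47, 7.33 and 7.31 in controls. The changes were small beside those of the genes above. At 28 d the genotypes did not overlap in any of the 5, which their choice as called genes favours, against 12.7% of all genes. When single arrays were left out in 12 fits, calls were lost for Mrpl45 in 3 fits (0.62 to 0.84, largest adjusted p 0.0723 without control 48 h replicate 1), Yars2 in 5 fits (0.60 to 0.83, largest adjusted p 0.0827 without control 48 h replicate 1), Sars2 in 7 fits (0.68 to 0.89, largest adjusted p 0.0861 without control 48 h replicate 1), Tsfm in 7 fits (0.56 to 0.77, largest adjusted p 0.122 without control 48 h replicate 1) and Aars2 in 8 fits (0.49 to 0.65, largest adjusted p 0.13 without control 48 h replicate 1). The calls were lost without the pair, at 0.56 for Mrpl45 (adjusted p = 0.0889), 0.60 for Yars2 (adjusted p = 0.0881), 0.60 for Sars2 (adjusted p = 0.13), 0.53 for Tsfm (adjusted p = 0.142) and 0.51 for Aars2 (adjusted p = 0.148). The median of the list was 0.18 without the pair.

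Lists tied to hepatocyte identity varied. The median interaction was 0.71 over 18 male-biased liver genes, of which none was called by limma. An unadjusted p under 0.05 was reached by 9 of them, 7 higher at 28 d and 2 lower. Keg1 had the smallest p (3.37, adjusted p = 0.0575). Of 14 female-biased genes Fmo2 was called, lower at 28 d. Bile acid synthesis, 16 genes, had a median of 0.24 (0.15 without control 28 d replicate 3) with none called and 3 at an unadjusted p under 0.05. Of 23 genes of bile transport and bile acid signalling 1 was called, the organic anion transporter Slco1a4, with an interaction of -1.29 (SE 0.28, adjusted p = 0.0394). Slco1a4 was higher in JNK1-/- livers at 48 h (1.04, adjusted p = 0.00824) and -0.25 at 28 d (adjusted p = 0.668). Leaving out 1 array at a time, in 12 fits, ended the call of Slco1a4 in 7 fits (-1.52 to -0.95, largest adjusted p 0.115 without control 48 h replicate 1). Leaving out the pair ended the call, with -0.98 for Slco1a4 (adjusted p = 0.0762). Over 25 secretory and metabolic hepatocyte genes the median interaction was 0.02, and over 16 JNK kinase and AP-1 genes it was -0.06. None of these 16 was called and 3 had an unadjusted p under 0.05, 2 higher at 28 d and 1 lower.

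**Figure D4:**
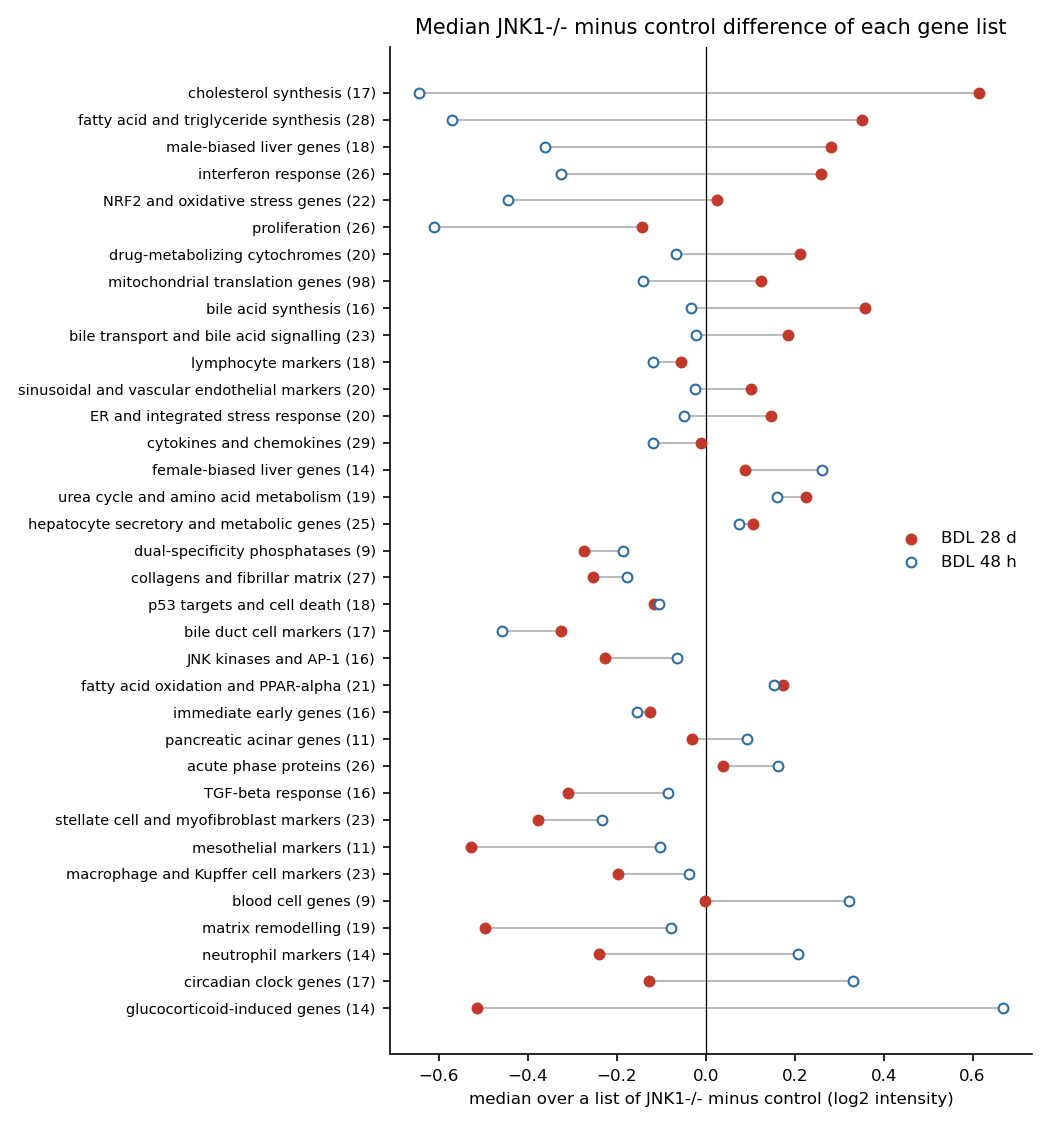
Median JNK1-/- minus control difference (x axis, log2 intensity) of 35 gene lists, with the number of genes in brackets, at 28 d (filled points) and 48 h (open points), ordered by the median interaction. Cholesterol synthesis stands at 0.61 at 28 d and -0.64 at 48 h, and glucocorticoid-induced genes stand at -0.51 at 28 d and 0.67 at 48 h.

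Promoters of the called genes were searched for 5 short motifs on both strands, in windows of 300 bases across each gene start in RefSeq (GRCm38.p6). Windows were found for 65 of the 78 genes higher at 28 d, 50 of the 62 lower ones and 14749 of all 18820. The AP-1 motif TGANTCA stood in 12.3% of the promoters of higher genes, 8.0% of lower genes and 7.92% of all genes. The shares for the E-box CACGTG, read by clock proteins and ChREBP-like factors, were 4.62%, 12.0% and 9.57%, and those for the sterol element TCACNCCAC were 1.54%, 2.0% and 1.42%. The glucocorticoid element, an inverted repeat with 3 free bases between its arms, stood in none of the higher genes, in 4.0% of the lower ones (2 genes, Slc10a6 and Fam107a) and in 0.468% of all genes. The cyclic AMP element TGACGTCA stood in none of the higher genes, 2.0% of the lower ones and 2.77% of all genes. A match is a run of letters and no evidence of binding. The promoters of 4 genes described above are shown, each as an example of a match to 1 of the motifs other than the cyclic AMP element, with the motif in capitals and its place counted from the gene start. Ddc (higher at 28 d) holds the AP-1 motif at -129 in chr11:11898095-11898394, minus strand. Slc10a6 (lower at 28 d) holds the glucocorticoid element at -163 in chr5:103629354-103629653, minus strand. Per1 (lower at 28 d) holds the E-box motif at -166 in chr11:69098699-69098998, plus strand. Mlxipl (higher at 28 d) holds the sterol element at -136 in chr5:135106641-135106940, plus strand.
Ddc: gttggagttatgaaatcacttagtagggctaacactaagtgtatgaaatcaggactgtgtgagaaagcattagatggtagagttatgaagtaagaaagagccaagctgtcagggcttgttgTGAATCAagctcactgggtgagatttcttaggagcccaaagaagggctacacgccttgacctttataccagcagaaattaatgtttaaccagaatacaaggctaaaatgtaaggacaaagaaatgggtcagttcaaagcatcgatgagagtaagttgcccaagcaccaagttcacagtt
Slc10a6: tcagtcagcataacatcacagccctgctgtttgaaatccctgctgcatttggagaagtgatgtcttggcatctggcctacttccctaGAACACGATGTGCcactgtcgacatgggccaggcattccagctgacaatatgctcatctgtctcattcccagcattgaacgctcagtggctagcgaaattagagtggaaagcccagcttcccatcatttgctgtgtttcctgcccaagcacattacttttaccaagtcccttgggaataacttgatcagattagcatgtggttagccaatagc
Per1: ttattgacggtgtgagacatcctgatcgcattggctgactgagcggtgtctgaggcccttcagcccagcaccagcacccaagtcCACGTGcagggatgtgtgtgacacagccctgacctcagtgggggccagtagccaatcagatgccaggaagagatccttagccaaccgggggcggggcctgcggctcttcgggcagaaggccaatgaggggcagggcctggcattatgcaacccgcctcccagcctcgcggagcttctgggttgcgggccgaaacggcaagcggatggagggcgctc
Mlxipl: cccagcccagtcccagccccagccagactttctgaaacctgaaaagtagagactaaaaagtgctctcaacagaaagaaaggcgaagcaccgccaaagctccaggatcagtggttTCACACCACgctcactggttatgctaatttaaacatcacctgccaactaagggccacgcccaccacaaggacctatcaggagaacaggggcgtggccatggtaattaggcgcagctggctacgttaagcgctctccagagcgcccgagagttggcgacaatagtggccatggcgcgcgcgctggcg

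Livers that lacked Jnk1 in hepatocytes were compared over the same times. The change of the JNK1Δhepa minus control difference was called for no gene by limma, with 1338 genes at an unadjusted p under 0.05. The interaction with JNK1Δhepa livers in place of controls, (JNK1-/- minus JNK1Δhepa at 28 d) minus (JNK1-/- minus JNK1Δhepa at 48 h), was called for 457 genes (2.43%), 229 higher and 228 lower. It shares the 6 JNK1-/- arrays with the interaction against controls. The count was 70 without JNK1Δhepa 28 d replicate 1, whose Mapk8 (7.67) was at the control level, and 126 without JNK1Δhepa 48 h replicate 3, which stood apart in pancreatic acinar transcripts (mean level of 11 genes 5.84, against 3.95 to 4.33 on the other arrays of BDL livers). It was 80 without JNK1-/- 28 d replicate 3, 237 without JNK1-/- 28 d replicate 1 and 227 without JNK1-/- 48 h replicate 1, and 291, 195 and 201 without JNK1Δhepa 28 d replicate 2 and JNK1Δhepa 48 h replicates 1 and 2.

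Car3 read 5.41, 7.02 and 7.44 in JNK1Δhepa livers at 28 d and 11.06, 10.69 and 12.36 at 48 h, which put it against JNK1-/- livers in the opposite order at the 2 times. Its value in this comparison was 6.57 (SE 0.98, adjusted p = 0.00505). Obp2a read 4.46, 4.66 and 5.41 in JNK1Δhepa livers at 28 d and 4.12, 5.21 and 4.69 at 48 h, all below the JNK1-/- livers at 48 h, and its value was -3.78 (SE 0.63, adjusted p = 0.00773). Slc8a1 read 4.88, 4.80 and 4.99 at 28 d and 3.92, 3.81 and 4.15 at 48 h in JNK1Δhepa livers, with a value of -3.18 (SE 0.43, adjusted p = 0.00505). The changes of the JNK1Δhepa minus control difference in these 3 genes were -0.85, 0.07 and 0.10. The calls of all 3 against JNK1Δhepa were kept in each of the 12 fits without 1 array.

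The gap between a gene's value against JNK1Δhepa and its value against controls is the change of the JNK1Δhepa minus control difference, so no gene was called as differing between the comparisons. Sult1e1, oestrogen sulfotransferase, read 10.57, 10.68 and 8.19 in JNK1-/- livers at 28 d, against 11.67, 11.36 and 11.46 in JNK1Δhepa livers and 11.37, 10.76 and 8.62 in controls. At 48 h it read 7.72, 8.56 and 6.99 in JNK1-/- livers, against 4.59, 6.41 and 3.69 in JNK1Δhepa livers and 5.02, 5.23 and 4.62 in controls. JNK1-/- livers were above all JNK1Δhepa and control livers at 48 h, and the values were -4.55 (adjusted p = 0.0199) against JNK1Δhepa and -3.24 (adjusted p = 0.11) against controls. Without 1 array at a time, the call was lost for Sult1e1 in 3 fits (-5.30 to -3.74, largest adjusted p 0.0665 without JNK1Δhepa 28 d replicate 1). Slc22a26, an organic anion transporter family member, read 9.45, 9.06 and 9.17 in JNK1-/- livers at 28 d, against 7.54, 6.93 and 9.08 in JNK1Δhepa livers, and 3.91, 4.67 and 5.67 in JNK1-/- livers at 48 h, against 9.66, 7.55 and 7.65 in JNK1Δhepa livers, a value of 4.92 (SE 0.87, adjusted p = 0.00949).

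Chrna4, a nicotinic acetylcholine receptor subunit, had 6.03 (adjusted p = 0.0125) in the same comparison, Sprr1a, an epithelial envelope protein, 4.93, Gask1a 3.98 and Aqp8, a water channel of hepatocytes, 3.85, all higher at 28 d. Phf11c had -3.60, Setdb2, a histone methyltransferase family member, -3.54 and the clock gene Ciart -3.37, all lower. For Setdb2 and Phf11c the high arrays were the 3 JNK1Δhepa livers at 28 d, control 28 d replicate 1 (10.82 and 10.55) and JNK1-/- 48 h replicate 1 (10.58 and 10.10). Among fits that left out 1 of 12 arrays, the call was lost for Sprr1a in 5 fits (4.35 to 5.51, largest adjusted p 0.0986 without JNK1Δhepa 28 d replicate 1), Gask1a in 4 fits (3.23 to 4.42, largest adjusted p 0.0762 without JNK1Δhepa 28 d replicate 1), Aqp8 in 6 fits (3.18 to 4.18, largest adjusted p 0.112 without JNK1Δhepa 28 d replicate 1), Phf11c in 8 fits (-4.10 to -2.78, largest adjusted p 0.137 without JNK1Δhepa 28 d replicate 1), Setdb2 in 7 fits (-3.99 to -2.75, largest adjusted p 0.118 without JNK1Δhepa 28 d replicate 1) and Ciart in 10 fits (-4.09 to -2.37, largest adjusted p 0.0986 without JNK1Δhepa 48 h replicate 3).

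**Figure D5:**
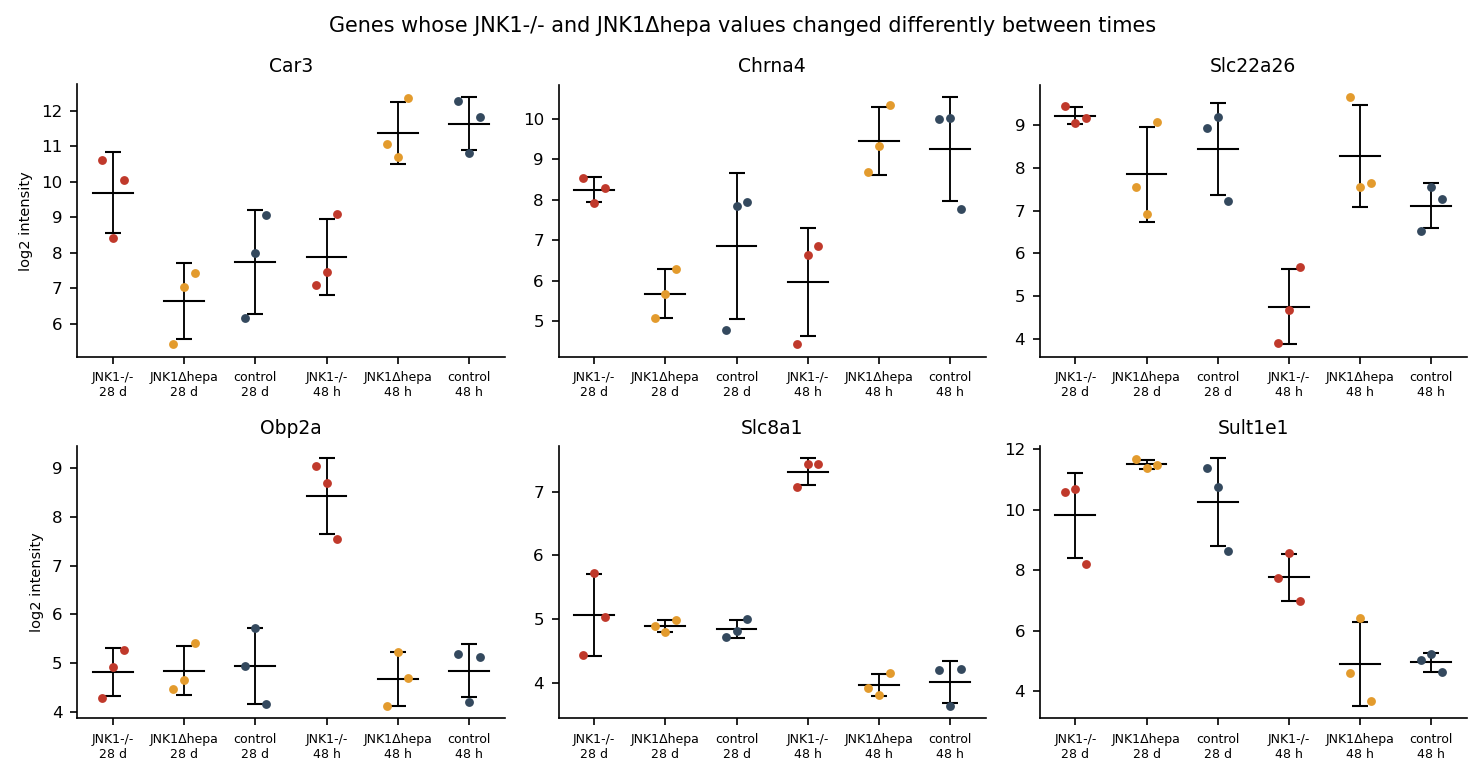
Log2 intensity (y axis) of 6 genes on each array of JNK1-/-, JNK1Δhepa and control livers after BDL for 28 d and 48 h, with the mean and SD of 3 arrays. In Obp2a and Slc8a1 the 3 JNK1-/- livers at 48 h stand alone among these ligated livers, at 7.55 to 9.04 and 7.07 to 7.44. Sham-operated livers are not drawn, and for Slc8a1 the arrays labelled control sham 48 h reached into that range.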

How the data were processed

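Total RNA of whole liver (100 ng, RNA integrity number above 8, per the labels' protocols) was hybridised to 1 gene expression array per liver. The authors deposited log2 intensities of 35556 probe sets, and RMA is the tool that the submitters' processing notes name; neither its version nor a genome build is named in the labels. Of these probe sets 21218 had 1 gene symbol, 1881 several and 12457 none, and only those with 1 symbol were used. Symbols were updated through gene numbers for 21185 of them, and where a gene had several, the probe set with the highest average over the 24 arrays was kept, leaving 18820 genes. Probe sets of the same gene can disagree, and the precision is limited by 3 arrays a group. No pair of arrays correlated above 0.993, so each was counted as a sample; the labels do not say whether arrays of a group came from separate operations, and p-values measure the spread between these arrays.

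A mean for each of 8 groups was fitted with limma 3.58.1 (R 4.3.3), with 16 residual degrees of freedom, and contrasts were tested two-sided with Benjamini-Hochberg adjustment over all genes. Every adjusted p in the text comes from these limma fits. The code was tested on simulated data. Genes named were, in each direction, the 12 largest called interactions without overlap between JNK1-/- and control arrays at 1 time at least, leaving out predicted genes and olfactory, vomeronasal, antibody and T cell receptor genes, the 6 largest against JNK1Δhepa by the same rule, up to 4 members of a list with the smallest p, and Mapk8, Mapk9, Mapk10 and Nnt; others are named in the text as chosen after their values were seen. The genes and lists were chosen with earlier results of these data known. The alternatives tried were quantile normalisation, median centring, leaving out the dimmer 50% of genes, testing every probe set, fitting only the arrays compared, intensity trend with robust variances, array weights per group, a replicate block, leaving out each array, and, chosen after seeing the data, leaving out the control sham 48 h arrays or the pair of arrays that stood apart.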

Additional observations from a re-analysis of the deposited data

Results flagged for a closer look

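The JNK1-/- minus control difference was found to change between 28 d and 48 h after ligation by a test of that change, called by limma for 140 genes, and the corresponding change against JNK1Δhepa livers was called for 457. These tests are what singles out the genes that follow.

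On the log2 scale the difference from controls was higher at 28 d by these values: Car3 5.71, Inmt 3.52, Ces1g 3.31, Clec2h 3.18, Sytl5 2.86, Mmd2 2.79, Fam47e 2.68, Slc22a7 2.32, Tlcd2 2.32, Nudt7 2.31, Cyp4f14 2.26, Rnf186 2.04, Srebf1 1.85, Mlxipl 0.82, Gpam 1.40, Bst2 1.39, Mrpl45 0.72, Yars2 0.73, Sars2 0.77, Tsfm 0.70, Aars2 0.57, Denn2b 1.13, Dhrs11 1.21, Dynll2 0.96, Cd209f 1.79, Ddc 1.65, P2ry4 2.02, Pygl 1.29, Cfap20dc 1.37, Angptl8 2.0, Mid1ip1 1.77, Lpl 1.57 and Cmpk2 1.56. It was lower at 28 d by these values: Obp2a -3.70, Slc10a6 -3.37, Slc8a1 -3.08, Chil3 -3.07, Nrg4 -2.91, Angptl4 -2.64, Fmo2 -2.58, Gpcpd1 -2.32, Fcamr -2.29, Fkbp5 -2.25, Per1 -2.22, Fbxo31 -2.15, Cpt1a -1.04, Ccn2 -1.96, Cd163 -1.83, Slco1a4 -1.29, Ms4a8a -2.0, Nceh1 -1.09, Rasgef1b -1.57, Slc39a2 -0.90 and Itga2b -0.77. Against JNK1Δhepa livers the values higher at 28 d were Car3 6.57, Chrna4 6.03, Sprr1a 4.93, Slc22a26 4.92, Gask1a 3.98 and Aqp8 3.85, and those lower at 28 d were Sult1e1 -4.55, Obp2a -3.78, Phf11c -3.60, Setdb2 -3.54, Ciart -3.37 and Slc8a1 -3.18. No formal outlier test of single arrays was made, since each group held 3.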

How the results depend on the processing

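The interaction was called for 140 genes, the JNK1-/- minus control difference at 48 h for 433 and at 28 d for 118, and the interaction against JNK1Δhepa for 457. In that order the counts were 135, 428, 113 and 393 with quantile normalisation, 259, 476, 187 and 464 with median centring, 243, 535, 100 and 720 without the dimmer 50% of genes, 142, 462, 130 and 452 with every probe set tested, and 136, 427, 123 and 423 with intensity trend and robust variances. With only the arrays compared they were 0, 121, 1 and 815, and for the interaction also 0 when trend and robust variances were added. With array weights per group they were 29, 518, 27 and 1224, and 32 of the 54 named interaction genes lost their call. In alternatives chosen after seeing the data they were 69, 333, 73 and 168 without the control sham 48 h arrays, and 23, 446, 144 and 1323 without the pair of control 28 d replicate 1 and JNK1-/- 48 h replicate 1. Leaving out the control sham 48 h arrays ended the call of 19 of the 54 named interaction genes. The cause of these moves was not tested.

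Leaving out single arrays gave 16 to 574 genes for the interaction, 161 to 413 at 48 h, 56 to 413 at 28 d and 70 to 458 against JNK1Δhepa. Of the genes named, 3 that were not called turned sign in such fits: Gas2 (0.22 with all arrays, -0.12 to 0.44) without control 28 d replicate 1 or JNK1-/- 48 h replicate 3, Slc6a16 (0.08, -0.063 to 0.25) without control 28 d replicate 3, JNK1-/- 28 d replicate 2 or JNK1-/- 48 h replicate 2, and Tead2 (-0.23, -0.40 to 0.0077) without control 28 d replicate 3. No called gene that is named turned sign in any alternative run, which the choice of called genes favours.

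With the replicate number as a block the counts were 136, 447, 99 and 727. Deviations of same-numbered JNK1-/- and control arrays correlated at 0.18, 0.08 and 0.50 at 28 d and at 0.00, 0.09 and -0.05 at 48 h, so the numbers were not taken to pair the samples. Since the fit of the 12 compared arrays alone called no gene, the calls of the interaction rest on the fit over all 8 groups.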

Other observations

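Other lists had no called member. Of 26 proliferation genes 23 had an interaction above 0, with a median of 0.38, a median difference of -0.14 at 28 d and of -0.61 at 48 h. None of them was called for the interaction by limma, and 7 had an unadjusted p under 0.05, against 14.9% of all genes. Of 22 genes of the NRF2 and oxidative stress response 20 were above 0, with a median of 0.44. None of these 22 was called and 9 had an unadjusted p under 0.05, 8 higher at 28 d and 1 lower. Without control 28 d replicate 1 and JNK1-/- 48 h replicate 1 the median was 0.11 for proliferation and 0.12 for NRF2 genes, and without 1 array at a time it lay between 0.18 (without control 48 h replicate 1) and 0.68 (without control 28 d replicate 3) for proliferation and between 0.19 (without JNK1-/- 48 h replicate 1) and 0.60 for NRF2 genes.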
